A study of Homo sapiens with 63 samples.

Results

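AXIN2, NKD1, RNF43, ZNRF3 and SP5 are genes that the canonical Wnt pathway switches on and whose products then restrain it inside the cell or at its receptors. They were taken by symbol from the expression table, where all 5 were present among 13962 genes. COLO320DM, an established human colorectal adenocarcinoma line, was grown in RPMI with 4% FBS and treated with Helicon 4 at 1, 3 or 10 µM, with Helicon 4-neg at 1, 3 or 10 µM, or with DMSO, the solvent, each for 6, 24 or 48 h. The series title describes Helicon 4 as a helicon peptide against β-catenin/TCF, and Helicon 4-neg is the companion compound of the labels, which do not give how the structures differ. Messenger RNA was measured by poly(A)-enriched, stranded sequencing in 63 libraries, 3 in each of 21 groups. All groups are of this 1 cell line. The labels do not say that replicates came from separate cultures, so the p-values cover the variation among these libraries, which may be technical.

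In canonical Wnt signalling, ligands bind Frizzled and LRP receptors, the destruction complex stops breaking down β-catenin, and β-catenin joins TCF/LEF factors on DNA to raise transcription. Some of the genes raised in this way brake the pathway. AXIN2 is a scaffold of the destruction complex, NKD1 binds Dishevelled, RNF43 and ZNRF3 are membrane ubiquitin ligases that remove Frizzled from the cell surface, and SP5 is a zinc finger transcription factor that represses Wnt target genes. Colorectal tumours commonly carry changes that keep β-catenin active, and AXIN2 is widely used there as a readout of that activity.

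The genes lie on 4 chromosomes of GRCh38 and their positions are those of GENCODE 29. AXIN2 (ENSG00000168646) is at chr17:65528563-65561647 on the minus strand, NKD1 (ENSG00000140807) at chr16:50548330-50649249 on the plus strand, and RNF43 (ENSG00000108375) at chr17:58352500-58417595 on the minus strand. ZNRF3 (ENSG00000183579) is at chr22:28883592-29057487 and SP5 (ENSG00000204335) at chr2:170715351-170718078, both on the plus strand. The RefSeq promoter table (GRCh38.p14) matched 2 of the 5 members, SP5 with 1 window and RNF43 with 2. The SP5 sequence is shown because the letters CTTTGA, a core that TCF/LEF factors bind, occur in it 3 times. It is the 250 bases before the RefSeq start, chr2:170715087-170715336, plus strand, with CTTTGA and the related CTTTGT on either strand in capitals.
SP5: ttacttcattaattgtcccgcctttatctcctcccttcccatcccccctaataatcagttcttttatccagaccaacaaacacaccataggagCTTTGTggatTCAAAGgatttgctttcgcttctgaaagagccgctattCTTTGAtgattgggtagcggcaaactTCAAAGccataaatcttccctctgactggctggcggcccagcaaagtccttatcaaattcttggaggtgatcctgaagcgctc
Counted from the start site, the first base of CTTTGA was at -109, that of its reverse complement TCAAAG at -147 and -83, and that of CTTTGT at -157. Both windows of RNF43 (chr17:58417485-58417784 and chr17:58402672-58402971, minus strand) held 0 matches to CTTTGA and 1 to CTTTGT or its reverse complement ACAAAG, shown with the 10 bases on each side.
RNF43, window at 58417485: tccaccctcaCTTTGTcagcaggtag
RNF43, window at 58402672: attttctcccACAAAGgaaaacctca
Over 35116 RefSeq promoter windows of 300 bases, 12.9% held CTTTGA at least 1 time on either strand and 0.0997% at least 3 times, and 16.1% held CTTTGT at least 1 time. A match to one motif cannot start at the same base of a strand as a match to the other. A match describes letters and is not evidence of binding.

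Between 16628595 and 32860333 reads per library fell in the table's genes (median 22123187). Levels are in scaled CPM unless named as per kb, and 1 read was worth 0.0301 to 0.0622 of it. AXIN2 had 1013 to 6640 reads per library, RNF43 673 to 2688, ZNRF3 369 to 1424, NKD1 169 to 1380 and SP5 29 to 293, so SP5 is the least precisely measured. Of 10 colorectal epithelial markers 8 were measured, with a median of 3.33e+03 for CDX2, 161 for KRT8 and 71.4 for KRT18 but only 2.08 for EPCAM, 1.41 for KRT20 and 0.504 for CDH1. The libraries also fell into 3 sets that the labels do not name. GFAP, an astrocyte filament gene, was at 20.2 to 36.7 in 32 libraries and at 2.53 to 4.92 in the other 31. CXCL10, a chemokine gene, was at 24.1 to 47.2 in those other 31 and at 0 to 0.426 in the 32, and COL1A2, a fibroblast collagen, was at 15.3 to 21.5 in 15 of the 31 and at 0 to 1.41 elsewhere. The summed level of the 5 measured fibroblast markers of 6 was highest in libraries of the COL1A2 set, with group means of 7.39 (Helicon 4-neg 10 µM, 48 h) to 53.0 (Helicon 4 3 µM, 48 h). It was also 26.5 to 30.8 with Helicon 4 10 µM at 48 h, where no library is of that set. The source of these reads was not tested. The GFAP set held 1 or 2 libraries of every group, so each result was also fitted in that set alone, where a group with 1 library is assumed to vary like the others. A library of Helicon 4-neg 1 µM and one of 3 µM, both at 48 h, had mitochondrial transcript sums of 1.26e+04 and 1.33e+04, against 1.59e+04 in the next lowest library.

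Helicon 4 lowered the feedback genes against DMSO of the same time, more members at higher doses and later times, and raised none of them. A member was called where limma's Benjamini-Hochberg adjusted p over all genes tested was below 0.05. At 6 h, 1 of the 5 members was called at 1 µM, where 12.7% of all genes tested were called, 3 at 3 µM (9.17% of all genes) and 5 at 10 µM (13.7%). The 12.7% was 1655 genes, and 4 genes were called with the library set as a term of the fit. With that term, 981 genes in place of 1197 were called at 3 µM and 1712 in place of 1791 at 10 µM. At 6 h, the 1 µM group and DMSO had only the GFAP set in common, with 1 library each. A difference between sets and lost power thus cannot be told apart at 1 µM. By 24 h the counts were 4 at 1 µM (18.9%), 5 at 3 µM (45.2%) and 5 at 10 µM (52.7%). At 48 h they were 4 (40.9%), 5 (59.2%) and 5 (59.8%). All 37 of these calls, of 45 tests, were lower with Helicon 4, and in each of them all 3 Helicon 4 libraries lay below all 3 DMSO libraries. How many of all genes separated in this way was not counted, so the separation cannot be called particular to the members. At 24 and 48 h the calls alone say little, since at the higher doses about as many genes were called as not. The members' median log2 fold change at 10 µM was -1.39, -1.48 and -1.69 at 6, 24 and 48 h, against -0.005, -0.006 and 0.024 over all genes tested. A median over all genes lies near 0 where rises and falls balance, so ranks from the lowest fold change are given too. At 6 h the members ranked from 10 (NKD1) to 155 (ZNRF3) of 13057 genes, and at 24 h from 34 (NKD1) to 445 (ZNRF3) of 13213. At 48 h they ranked from 32 (SP5) to 677 (ZNRF3) of 13478. The members were chosen with earlier results of these data known, so the ranks are a description. In RNA from whole cultures, fewer cells of a type and less RNA per cell cannot be told apart.

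Marker sums moved along with these falls at 10 µM. The colorectal epithelial sum, nearly all of it CDX2, averaged 2.75e+03 with Helicon 4 and 3.54e+03 with DMSO at 6 h, 2.65e+03 and 3.65e+03 at 24 h and 2.80e+03 and 4.20e+03 at 48 h, with no overlap of libraries. The sum of the 5 neuroendocrine markers measured of 6 averaged 23.3 with Helicon 4 and 23.2 with DMSO at 6 h, 30.9 and 23.4 at 24 h and 41.2 and 27.9 at 48 h, with no overlap of libraries at 24 and 48 h. ENO2 was the highest of these markers, with a mean of 14.2 and a range of 9.71 to 28 over all libraries. SYP reached at most 9.93, CHGA 4.42, CHGB 4.09 and NCAM1 1.7. Which of these markers carried the rise of the sum was not tested. Mitochondrial transcripts summed to 2.09e+04 with Helicon 4 and 2.58e+04 with DMSO at 6 h, 2.35e+04 and 1.70e+04 at 24 h and 2.47e+04 and 3.36e+04 at 48 h. Leukocyte markers (2 of 6 measured, mostly PTPRC) had group means of 10.5 to 15.0 over the 21 groups, and endothelial markers (2 of 5) 0.211 to 1.45. The part of these markers in the results was not tested.

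**Figure D1:**
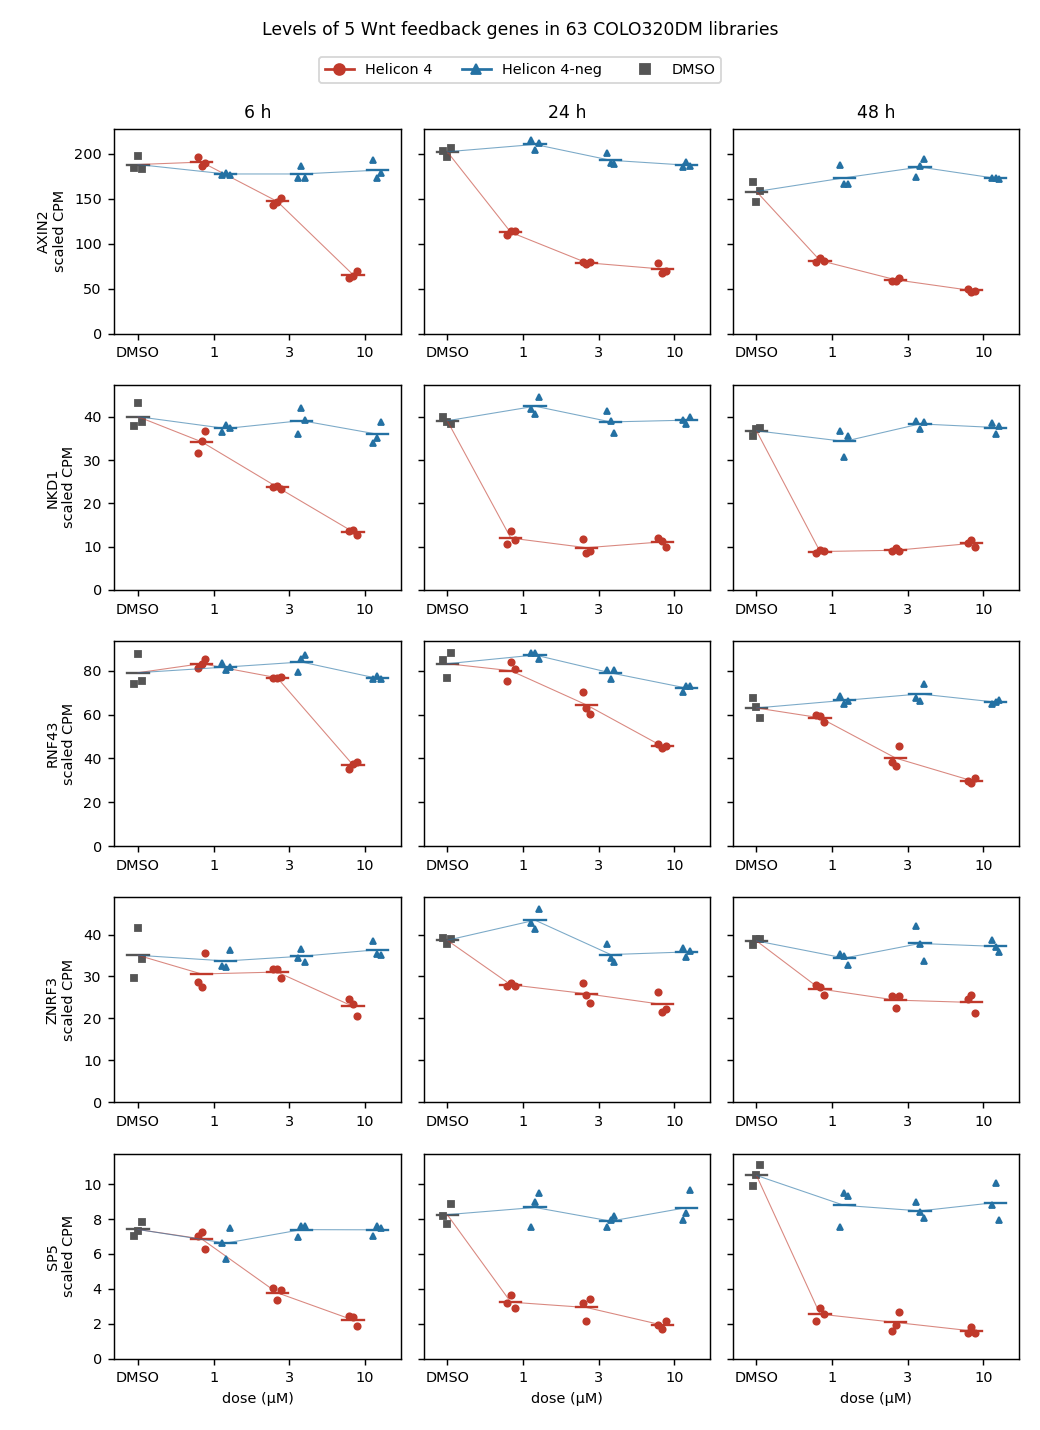
Level (scaled CPM, linear axis from 0) of each gene in all 63 libraries, by dose and time. Points are libraries and bars the means of 3. At 6 h AXIN2, NKD1 and SP5 step down from 3 µM and RNF43 and ZNRF3 overlap DMSO up to 3 µM, while Helicon 4-neg stays near DMSO for most genes.

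AXIN2, the destruction complex scaffold, had the highest level per kb of the 5 (36.0 per kb with DMSO at 6 h). Its levels at 6 h were 184, 197 and 183 with DMSO, 196, 186 and 190 at 1 µM, 143, 147 and 151 at 3 µM and 62.4, 64.5 and 69.99 at 10 µM of Helicon 4. The 1 µM libraries overlapped DMSO, and those of 3 and 10 µM lay below it. After 24 h the levels were 203, 197 and 206 with DMSO, 109.8, 114 and 114 at 1 µM, 79.8, 77.5 and 79.2 at 3 µM and 78.6, 67.0 and 69.7 at 10 µM. At 48 h they were 169, 147 and 158 with DMSO, 80.0, 83.6 and 80.2 at 1 µM, 58.5, 58.7 and 62.3 at 3 µM and 50.2, 46.7 and 47.1 at 10 µM. By 24 h a dose without a detected effect at 6 h had thus brought AXIN2 down to 55.7% of DMSO. AXIN2 averaged 48.0 ± 1.9 with Helicon 4 10 µM and 158 ± 11 with DMSO at 48 h (SD, n = 3 each), 30.4% of the DMSO level. The log2 fold changes at 10 µM against DMSO were -1.504 (SE 0.045, limma adjusted p = 7e-18), -1.48 (SE 0.045, 3.3e-16) and -1.70 (SE 0.054, 1.8e-17) at 6, 24 and 48 h. Folds are on the scale log2(value + 1), which understates those of low genes.

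NKD1, which binds Dishevelled, was the one member called at every dose and time. At 6 h its levels were 37.9, 43.3 and 38.9 with DMSO, 31.6, 34.5 and 36.6 at 1 µM, 23.8, 24.0 and 23.4 at 3 µM and 13.7, 13.8 and 12.8 at 10 µM. All 4 steps were separate, but the step to 1 µM was small, with a log2 fold change of -0.22 (SE 0.066, limma adjusted p = 0.032). That call was lost in the GFAP set alone (-0.08, adjusted p = 0.96), with the library set as a term (-0.17, adjusted p = 0.34) and without Helicon 4 1 µM replicate 1 (-0.17) or 2 (-0.23) or DMSO replicate 2 (-0.16). After 24 h the levels were 40.0, 38.9 and 38.4 with DMSO, 10.7, 13.7 and 11.5 at 1 µM, 11.7, 8.55 and 8.96 at 3 µM and 12.0, 11.4 and 9.94 at 10 µM. At 48 h they were 35.6, 37.1 and 37.5 with DMSO, 8.52, 9.10 and 8.96 at 1 µM, 8.89, 9.66 and 8.89 at 3 µM and 10.8, 11.5 and 9.86 at 10 µM. From 24 h on, 1 µM thus left NKD1 about as low as 10 µM did. The fold changes against DMSO at 48 h were -1.94 at 1 µM (SE 0.069, limma adjusted p = 7.9e-16), -1.90 at 3 µM (SE 0.069, 3.1e-16) and -1.69 at 10 µM (SE 0.069, 1.5e-15). At 48 h, NKD1 at 10 µM differed from 3 µM by 0.21 (95% interval 0.06 to 0.35, adjusted p = 0.085), and all 3 libraries at 10 µM were above those at 3 µM. The difference was called without Helicon 4 10 µM replicate 3 (0.26, adjusted p = 0.043). NKD1 was lowest of all 21 groups at 1 µM and 48 h, at 8.86 ± 0.30 against 36.8 ± 1.0 with DMSO (SD, n = 3 each), 24.1% of the DMSO level.

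RNF43, one of the pair of ligases that remove Frizzled, needed the highest dose at 6 h. Its levels were then 74.2, 87.7 and 75.5 with DMSO, 81.2, 83.3 and 85.3 at 1 µM, 76.5, 76.8 and 77.2 at 3 µM and 35.0, 37.7 and 38.5 at 10 µM. The 10 µM libraries stood apart, and the others overlapped DMSO. By 24 h the levels were 85.1, 76.6 and 88.0 with DMSO, 75.5, 83.9 and 80.7 at 1 µM, 70.2, 62.9 and 60.1 at 3 µM and 46.5, 44.6 and 45.7 at 10 µM. At 48 h they were 67.4, 63.4 and 58.3 with DMSO, 59.7, 59.3 and 56.6 at 1 µM, 38.3, 36.7 and 45.5 at 3 µM and 29.6, 28.8 and 31.3 at 10 µM. Dose grading was thus still present at the later times, where 1 µM was not called. At 48 h the fold changes against DMSO were -0.10 at 1 µM (95% interval -0.24 to 0.03), -0.64 at 3 µM (SE 0.065, limma adjusted p = 1.6e-08) and -1.05 at 10 µM (SE 0.065, 3.1e-12). At 10 µM the fold change was -1.07 at 6 h (SE 0.051, adjusted p = 1.2e-13) and -0.85 at 24 h (SE 0.056, 6.3e-11). RNF43 lies within AC004687.2, an annotated gene on the same strand not measured here, and shares 594 bases with SUPT4H1 on that strand. The counting may therefore have split or dropped reads. RNF43 also shares 63267 bases with TSPOAP1-AS1, an antisense gene whose mean level over the 63 libraries was 0.251. The other members but SP5 also overlap annotated genes by span, none of them measured here. On the same strand, AXIN2 shares 23546 bases with AC004805.1, NKD1 3365 with AC007608.4 and ZNRF3 25900 with ZNRF3-IT1, and NKD1 and ZNRF3 also overlap antisense genes. SUPT4H1 is a transcription elongation factor gene. Its fold change at 10 µM against DMSO was 0.11 at 6 h, not called (limma adjusted p = 0.17). It was called higher at 24 h (0.38, adjusted p = 1.2e-05) and 48 h (0.27, adjusted p = 3.5e-05).

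ZNRF3, the other ligase of the pair, had the smallest falls at 10 µM. Its levels at 6 h were 29.6, 41.5 and 34.1 with DMSO, 28.8, 27.4 and 35.6 at 1 µM, 31.7, 31.9 and 29.6 at 3 µM and 24.5, 23.5 and 20.6 at 10 µM. DMSO libraries were the most spread, and only those of 10 µM lay wholly below them. By 24 h the levels were 39.2, 37.8 and 38.9 with DMSO, 27.8, 28.5 and 27.8 at 1 µM, 28.5, 25.6 and 23.6 at 3 µM and 26.3, 21.6 and 22.1 at 10 µM. At 48 h they were 37.6, 38.9 and 38.9 with DMSO, 28.0, 27.5 and 25.6 at 1 µM, 25.4, 22.4 and 25.3 at 3 µM and 24.6, 25.6 and 21.3 at 10 µM. Most of the fall was thus already there at 1 µM from 24 h on, which is where RNF43 was not called. The fold changes at 10 µM were -0.59 (SE 0.095, limma adjusted p = 0.00012), -0.71 (SE 0.071, 4.4e-08) and -0.67 (SE 0.075, 5.5e-08) at 6, 24 and 48 h. At 10 µM, ZNRF3 kept 65.2%, 60.4% and 61.9% of the DMSO level at these times, and RNF43 46.9%, 54.8% and 47.4%.

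Because the 2 ligases fell by different amounts, their ratio was compared between Helicon 4 10 µM and DMSO. The test was chosen with these falls known and used the same libraries, so its p is not independent support for the difference. The ratio of the RNF43 level to the ZNRF3 level was 1.43, 1.61 and 1.87 with Helicon 4 10 µM, against 2.51, 2.12 and 2.21 with DMSO, at 6 h. At 24 h it was 1.77, 2.06 and 2.06, against 2.17, 2.03 and 2.26, and at 48 h 1.20, 1.13 and 1.47, against 1.79, 1.63 and 1.5. The groups overlapped at 24 h and not at 6 and 48 h. The mean log2 ratio was lower with Helicon 4 by a difference of -0.33 over the 3 times, with an exact two-sided permutation p of 0.00075 over 8000 arrangements within times (smallest possible 0.00025). Within a single time, 3 against 3 libraries cannot go below 0.1, and the differences were -0.49, -0.14 and -0.38. With Helicon 4-neg 10 µM the ratio was 1.98, 2.19 and 2.17 at 6 h, 1.90, 2.11 and 2.02 at 24 h and 1.68, 1.78 and 1.85 at 48 h. The Helicon 4 10 µM libraries lay below these at 6 and 48 h and overlapped them at 24 h, where the means were 1.96 with Helicon 4 and 2.01 with Helicon 4-neg, a comparison that was not tested. At 1 µM of Helicon 4 the means ran the other way, 2.75, 2.86 and 2.17 against 2.28, 2.15 and 1.64 with DMSO, which was not tested.

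**Figure D2:**
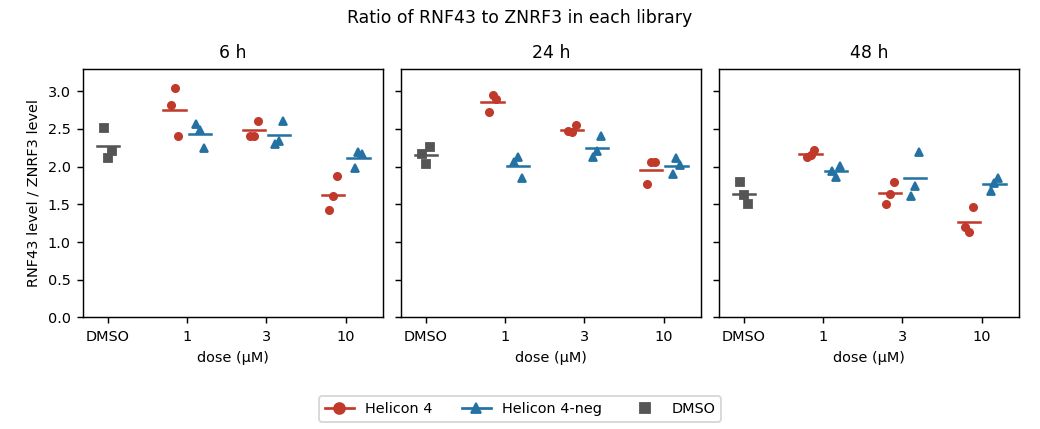
Ratio of the RNF43 level to the ZNRF3 level in each library (linear axis from 0), by dose and time, with the mean of 3 as a bar. Helicon 4 at 10 µM has the lowest mean at each time, from 1.27 to 1.96, and Helicon 4 at 1 µM the highest, from 2.17 to 2.86.

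SP5, the transcriptional repressor of Wnt targets, fell furthest in relative terms at 10 µM. At 6 h its levels were 7.05, 7.33 and 7.82 with DMSO, 7.04, 7.27 and 6.28 at 1 µM, 4.05, 3.34 and 3.93 at 3 µM and 2.42, 2.37 and 1.84 at 10 µM. The 1 µM libraries overlapped DMSO and the others lay below. At 24 h the levels were 8.16, 7.72 and 8.88 with DMSO, 3.17, 3.62 and 2.91 at 1 µM, 3.19, 2.18 and 3.42 at 3 µM and 1.91, 1.69 and 2.17 at 10 µM. At 48 h they were 9.90, 10.5 and 11.1 with DMSO, 2.17, 2.91 and 2.55 at 1 µM, 1.60, 1.92 and 2.68 at 3 µM and 1.45, 1.82 and 1.49 at 10 µM. SP5 was lower at each later time for every dose, while in DMSO it was highest at 48 h. It averaged 1.59 ± 0.20 with Helicon 4 10 µM and 10.5 ± 0.60 with DMSO at 48 h (SD, n = 3 each), 15.1% of the DMSO level. The fold changes at 10 µM were -1.39 (SE 0.10, limma adjusted p = 9.1e-10), -1.67 (SE 0.12, 2.3e-10) and -2.15 (SE 0.13, 9.9e-13) at 6, 24 and 48 h. Over the other settings tried they reached -1.73, -2.09 and -2.73, as the added 1 weighs most on this gene. The lowest count was 29 reads, a level of 1.69 with a 95% interval of 1.13 to 2.42 that covers counting error only.

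**Figure D3:**
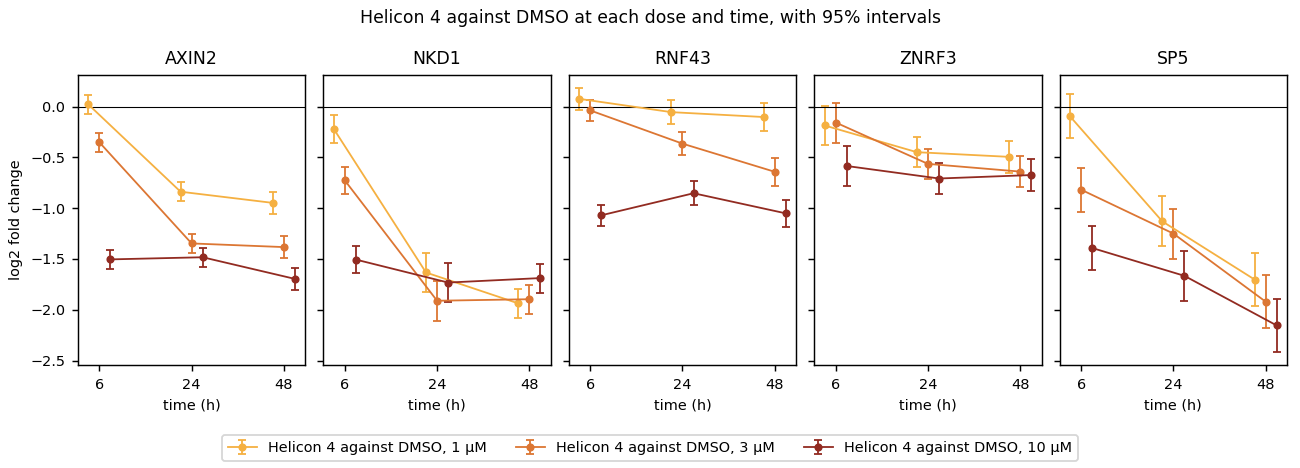
Log2 fold change of Helicon 4 against DMSO on the log2(value + 1) scale, by time, for 1, 3 and 10 µM, with 95% intervals from limma. RNF43 falls at 10 µM alone at 6 h and separates by dose at 24 and 48 h, whereas NKD1 at 24 and 48 h lies between -1.63 and -1.94 at every dose.

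Ordered by the fall at 10 µM, the 2 ligases had the smallest falls at each time. At 6 h the 95% intervals of NKD1, AXIN2, SP5 and RNF43 overlapped between neighbours, and those of RNF43 and ZNRF3 did not. At 24 h the order was NKD1, SP5 and AXIN2, whose neighbours overlapped, then RNF43, apart from AXIN2, and ZNRF3, which overlapped RNF43. At 48 h SP5 was apart from AXIN2, AXIN2 overlapped NKD1, and RNF43 and ZNRF3 were each apart from their neighbours. The order among NKD1, AXIN2 and SP5 turns with the number added before taking logs. With 0.1 in place of 1, SP5 came first at all 3 times, with -1.71, -2.05 and -2.66, against -1.57, -1.81 and -1.77 for NKD1, and edgeR gave the same leader. Across all 21 groups, the highest mean was Helicon 4-neg 1 µM at 24 h for AXIN2 (210.2), NKD1 (42.4), RNF43 (87.2) and ZNRF3 (43.4) and DMSO at 48 h for SP5 (10.5). The lowest was Helicon 4 10 µM at 48 h for AXIN2, RNF43 (29.9) and SP5, Helicon 4 1 µM at 48 h for NKD1 and Helicon 4 10 µM at 6 h for ZNRF3 (22.9). Of the 20 neighbouring pairs in these orders, the libraries did not overlap in 6 for AXIN2, 2 for NKD1, 3 for RNF43, 2 for ZNRF3 and 1 for SP5. All 9 Helicon 4 means lay below all 12 other means for NKD1 and ZNRF3, 8 of 9 did for AXIN2 and SP5, and 5 of 9 for RNF43. How often other genes separate by library or by mean in such orders was not counted.

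Neighbouring Helicon 4 doses were tested directly. At 6 h, 3 µM was called lower than 1 µM for 3 of the 5 members (0.345% of all genes were called), which were AXIN2 (-0.37), NKD1 (-0.51) and SP5 (-0.72), and 10 µM lower than 3 µM for all 5 (4.41%), by -0.43 for ZNRF3 to -1.15 for AXIN2. At 24 h the step to 3 µM was called for 3 (20.1%), namely AXIN2 (-0.51), NKD1 (-0.28) and RNF43 (-0.31), and the step to 10 µM for 2 (5.48%), RNF43 (-0.49) and SP5 (-0.42). At 48 h AXIN2 and RNF43 were the 2 called at both steps (22.5% and 4.71%), with -0.44 and -0.54 for 3 against 1 µM and -0.31 and -0.41 for 10 against 3 µM. All of these calls were lower at the higher dose. The NKD1 step to 3 µM at 24 h was the one call in which libraries overlapped, and it was lost with edgeR (-0.30, adjusted p = 0.061) and without 3 µM replicate 2 (-0.20) or 3 (-0.23) or 1 µM replicate 2 (-0.19) or 3 (-0.30). The SP5 step to 10 µM at 24 h was also lost with edgeR (-0.59, adjusted p = 0.051) and without any of 10 µM replicates 1 and 2 (-0.41 and -0.36) and 3 µM replicates 1 and 3 (-0.36 and -0.32). In the same comparison AXIN2 was called lower under median centring (-0.15, adjusted p = 0.041) and without 10 µM replicate 1 (-0.20, adjusted p = 0.0033), and NKD1 higher without 3 µM replicate 1 (0.31, adjusted p = 0.035). Leaving out 10 µM replicate 3 ended the ZNRF3 call at 6 h (-0.36, adjusted p = 0.051). The SP5 step to 10 µM at 24 h was lost with the library set as a term (-0.37, adjusted p = 0.16), and in the GFAP set alone both SP5 steps at 6 h (-0.66 and -0.45), the NKD1 and SP5 steps at 24 h (-0.30 and -0.33) and the RNF43 step to 10 µM at 48 h (-0.28) kept their direction without a call.

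The comparison with Helicon 4-neg asked what the companion compound did at the same doses. Against DMSO, Helicon 4-neg changed 2 of 45 member values by the same test. None of the 5 members was called at 6 h at 1, 3 or 10 µM, where 0.0306%, 1.75% and 0.26% of all genes were called. At an unadjusted p below 0.05 there were 0, 0 and 1 members, and edgeR's quasi-likelihood test called 0 at each dose. At 24 h, 0 of 5 were called at 1 µM (0% of all genes, none by edgeR either, with 676 genes and 1 member at an unadjusted p below 0.05) and 0 at 3 µM (2.36%, with 0 at an unadjusted p below 0.05 and 0 by edgeR). One was called at 10 µM (11.7%). It was RNF43, at 70.2, 73.0 and 73.2 with Helicon 4-neg, against 85.1, 76.6 and 88.0 with DMSO, a log2 fold change of -0.20 (SE 0.056, limma adjusted p = 0.025). Leaving out any of 4 of the 6 libraries ended that call (-0.16 to -0.21), as did the GFAP set alone (-0.17, adjusted p = 0.46). At 48 h, 0 members were called at 1 µM (24.3% of all genes) and 10 µM (19%), with 2 and 1 at an unadjusted p below 0.05 and 0 by edgeR, and 1 at 3 µM (28.3%). It was AXIN2, higher at 174, 187 and 194 with Helicon 4-neg, against 169, 147 and 158 with DMSO, a log2 fold change of 0.23 (SE 0.054, limma adjusted p = 0.0035). AXIN2 at 10 µM was called without the low-mitochondrial libraries (0.13, adjusted p = 0.032), and at 1 µM in the GFAP set alone (0.25, adjusted p = 0.0039). SP5 had -0.24, -0.28 and -0.21 at 1, 3 and 10 µM at 48 h, of which the middle value was called only with the library set as a term (-0.34, adjusted p = 0.037). Over all 45 values the fold changes ran from -0.28 to 0.23 and their 95% intervals from -0.54 to 0.34.

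At matched dose and time, Helicon 4 was lower than Helicon 4-neg in 37 of 45 tests. The calls differed from those against DMSO for NKD1 at 1 µM and 6 h, called against DMSO alone, and for RNF43 at 1 µM and 48 h, called against Helicon 4-neg alone. At 6 h, 0 of the 5 members were called at 1 µM (0.0613% of all genes, with 1 member at an unadjusted p below 0.05 and 0 by edgeR), 3 at 3 µM (1.64%) and 5 at 10 µM (8.42%). At 24 h there were 4, 5 and 5 at 1, 3 and 10 µM (25.5%, 42.9% and 52.7%), and at 48 h 5, 5 and 5 (35.9%, 52.5% and 53.7%). All of these calls were lower. At 48 h and 10 µM, AXIN2 differed by -1.83 (95% interval -1.94 to -1.72), NKD1 by -1.72 (-1.86 to -1.57), RNF43 by -1.11 (-1.25 to -0.98), ZNRF3 by -0.63 (-0.78 to -0.47) and SP5 by -1.94 (-2.20 to -1.68). The widest gap between compounds at 1 µM was that of NKD1 at 48 h, at 8.52, 9.10 and 8.96 with Helicon 4, against 36.6, 30.8 and 35.5 with Helicon 4-neg. RNF43 was called at 1 µM at 48 h (-0.18, adjusted p = 0.034) but not with edgeR (-0.17, adjusted p = 0.051), nor without the low-mitochondrial libraries (-0.16, adjusted p = 0.067), nor with any of 5 of its 6 libraries left out (-0.20 to -0.16). For the 8 pairs not called, the intervals spanned -0.36 to 0.27.

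**Figure D4:**
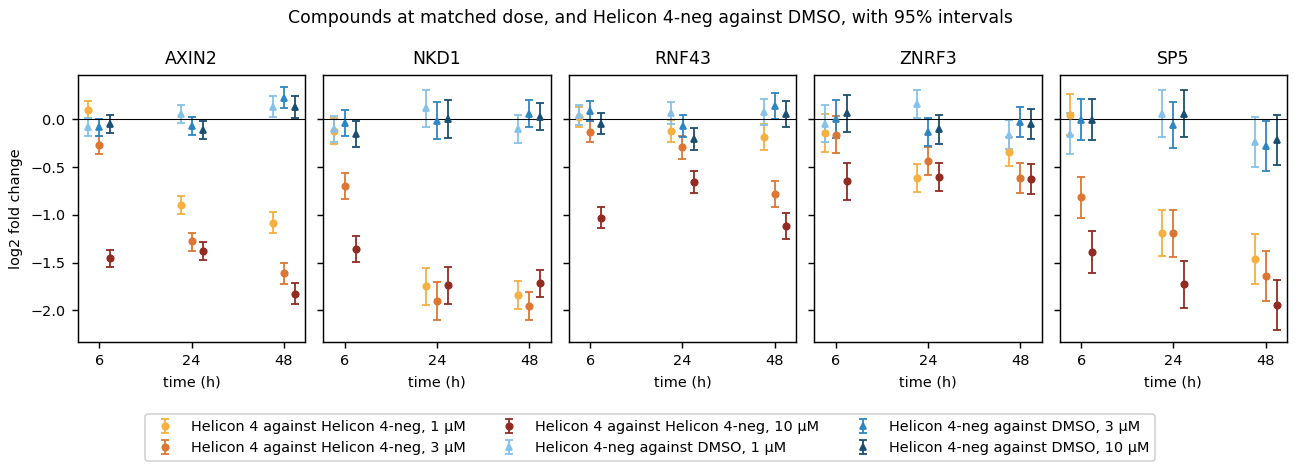
Log2 fold changes with 95% intervals, by time: Helicon 4 against Helicon 4-neg at the same dose (circles) and Helicon 4-neg against DMSO (triangles). The triangles lie between -0.28 and 0.23, and at 10 µM every circle lies below -0.60.

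The change with time was tested as the difference of the Helicon 4 effect between times. At 1 µM, 3 members had a larger fall at 24 than at 6 h (9.1% of all genes were called): AXIN2, NKD1 and SP5. The SP5 call was lost in the GFAP set alone (-0.85, adjusted p = 0.10), where ZNRF3 was called (-0.49, adjusted p = 0.024). From 24 to 48 h the difference at 1 µM was called for 2, NKD1 and SP5 (16.7%). The NKD1 call was fragile. It was lost in 10 of the 12 fits that left out a library (-0.33 to -0.21), all but those without Helicon 4 24 h replicate 1 or DMSO 48 h replicate 1. In the GFAP set alone neither NKD1 (-0.38, adjusted p = 0.083) nor SP5 (-0.54, adjusted p = 0.13) was called. At 3 µM all 5 were called with a larger fall at 24 than at 6 h (32.8%), and 2, RNF43 and SP5, at 48 than at 24 h (30.8%). Of the first, SP5 was lost in the GFAP set alone (-0.42, adjusted p = 0.25) and in 7 fits that left out a library (-0.44 to -0.29), those without Helicon 4 6 h replicate 1 or 3, Helicon 4 24 h replicate 2, DMSO 6 h replicate 1 or 2, or DMSO 24 h replicate 1 or 3. ZNRF3 was lost without DMSO 6 h replicate 1 (-0.30, adjusted p = 0.059). The RNF43 call at 48 against 24 h was lost without Helicon 4 48 h replicate 2 (-0.22, adjusted p = 0.053). At 10 µM the falls were already large at 6 h. From 6 to 24 h, 1 member changed (38.6%), RNF43 with a smaller fall by 0.22. From 24 to 48 h, 2 had a larger fall against DMSO of the same time (34.2%), AXIN2 and SP5. SP5 averaged 1.92 at 24 h and 1.59 at 48 h with Helicon 4 10 µM, where libraries overlapped. In DMSO it averaged 8.25 and 10.5, and this rise enters the SP5 differences from 24 to 48 h at every dose. The RNF43 change was lost under median centring (0.18, adjusted p = 0.068), where NKD1 was called instead (-0.27, adjusted p = 0.033), and without Helicon 4 6 h replicate 1 (0.18), Helicon 4 24 h replicate 1 (0.20) or 3 (0.22), DMSO 6 h replicate 2 (0.14) or DMSO 24 h replicate 2 (0.16), and in the GFAP set alone (0.23, adjusted p = 0.12). From 24 to 48 h, AXIN2 was lost without Helicon 4 24 h replicate 1 (-0.15) or DMSO 48 h replicate 1 (-0.16) and SP5 in the GFAP set alone (-0.50, adjusted p = 0.24), while RNF43 was called under median centring (-0.27, adjusted p = 0.0049). DMSO itself was not constant. Between 24 and 6 h no member was called in DMSO (20.4% of all genes, with 1 member at an unadjusted p below 0.05 and 0 by edgeR), but at 48 against 24 h 3 were (50.9%), with AXIN2 lower by a log2 fold change of -0.36, RNF43 lower by -0.40 and SP5 higher by 0.31. The SP5 call in DMSO was lost in the GFAP set alone (0.27, adjusted p = 0.18) and without 24 h replicate 2 (0.27) or 48 h replicate 3 (0.28). The summed mitochondrial transcripts in DMSO were 3.36e+04 at 48 h and 1.70e+04 at 24 h, and their part in these differences was not tested.

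Within the library sets the falls at 10 µM kept their direction. In the GFAP set alone all 5 members were called lower than DMSO at each time, with AXIN2 at -1.51, -1.35 and -1.72, NKD1 at -1.44, -1.61 and -1.78, RNF43 at -1.04, -0.81 and -1.04, ZNRF3 at -0.49, -0.53 and -0.82 and SP5 at -1.38, -1.68 and -2.17 at 6, 24 and 48 h. In the CXCL10 libraries at 6 h, all 5 were lower, with log2 differences of -1.59 to -0.74, and likewise in the COL1A2 libraries at 24 h, with -1.82 to -0.81, both without a test. Neither set held both groups at the other times.

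Most of the remaining Wnt pathway did not move as one with the members. Of the ligands and their secretion factors, 1 was called higher and 2 lower of 11 tested at 6 h with Helicon 4 10 µM against DMSO, 5 and 3 of 12 at 24 h and 5 and 2 of 12 at 48 h. Over all genes tested, 13.7%, 52.7% and 59.8% were called at these times, against which this and the following list counts are to be read. WNT11, a ligand of mainly β-catenin-independent signalling, fell to 24.6 ± 2.3 with Helicon 4, against 58.7 ± 0.66 with DMSO, at 48 h, and WNT5A, another such ligand, was higher at 34.3 ± 2.3 against 14.1 ± 1.3 at 24 h (SD, n = 3 each). Among receptors and R-spondins, 1 rose and 5 fell of 14 at 6 h, 5 and 5 of 14 at 24 h and 7 and 5 of 15 at 48 h. FZD8, a Frizzled receptor, fell early (16.4 ± 1.5 against 33.8 ± 3.7 with DMSO at 6 h), FZD2 was higher at 24 h (47.2 ± 2.3 against 23.6 ± 2.8), and LGR4, an R-spondin receptor through which RNF43 and ZNRF3 are cleared, rose to 60.8 ± 0.94 against 19.4 ± 2.3 at 48 h. At that time and dose LGR4 was called higher and both ligases lower.

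In the Dishevelled and destruction complex list, 1 gene rose and 4 fell of 16 at 6 h, 4 and 5 at 24 h and 9 and 2 at 48 h. AMER1, which recruits APC to the membrane, had fold changes of -0.33 at 6 h and -0.66 at 24 h, and FBXW11, a subunit of the ligase that marks β-catenin, one of 0.70 at 48 h. Among 14 genes of the β-catenin nuclear complex, 1 rose and 6 fell at 6 h, 5 and 3 at 24 h and 6 and 2 at 48 h. LEF1, through which β-catenin reaches DNA, had -0.74 at 6 h and -1.30 at 48 h, and CTNNB1, which encodes β-catenin, had 0.46 at 24 h (590 ± 11 with Helicon 4, against 427 ± 6.4 with DMSO). The secreted and membrane antagonists had 0 rises and 6 falls of 12 at 6 h, 4 and 7 of 13 at 24 h and 6 and 6 of 14 at 48 h. TNFRSF19, a membrane receptor, was at 22.1 ± 1.0 against 85.1 ± 1.2 with DMSO at 6 h and 12.8 ± 0.94 against 78.0 ± 3.0 at 24 h, and APCDD1, a membrane inhibitor of Wnt, at 66.6 ± 0.87 against 434 ± 6.4 at 48 h. The median log2 fold changes of these lists at 48 h ran from -0.08 for the antagonists to 0.22 for the destruction complex list, against 0.02 over all genes and -1.69 for the 5 members. At 24 h the antagonists had a median of -0.85, against -0.006 over all genes and -1.48 for the members. The medians of the other lists at 24 h ran from -0.10 for the receptors to 0.23 for the ligands. At 6 h the antagonists had -0.08.

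Of 16 tested relatives of the members by gene family, 0 rose and 2 fell at 6 h, 4 rose and 5 fell at 24 h and 3 rose and 3 fell at 48 h. NKD2, the paralog of NKD1, fell to 6.16 ± 1.3 with Helicon 4 10 µM, against 26.5 ± 0.25 with DMSO, at 24 h, and to 4.34 ± 0.25 against 32.1 ± 1.3 at 48 h, a log2 fold change of -2.63 (SE 0.096, limma adjusted p = 1.9e-16). RNF128, a transmembrane ubiquitin ligase like RNF43, had -0.35 at 6 h. AXIN1, the constitutive counterpart of AXIN2, was named after its values were seen, with -0.04 at 6 h (adjusted p = 0.70), a fall of -0.31 at 24 h (adjusted p = 0.0022) and -0.02 at 48 h (adjusted p = 0.85). With Helicon 4-neg 10 µM, AXIN1 had -0.23 at 24 h (adjusted p = 0.057) and fell at 48 h (-0.20, adjusted p = 0.042).

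Helicon 4-neg 10 µM against DMSO was called in 5 of the 18 cases of a pathway gene named at a time by the rule. A gene named at several times is counted at each. Of all genes tested, 0.26%, 11.7% and 19% were called for Helicon 4-neg 10 µM at 6, 24 and 48 h. FBXW11 rose by 0.44 at 48 h (limma adjusted p = 0.0017), against the 0.70 of Helicon 4, and AMER1 fell at 24 h (-0.30, adjusted p = 0.042), against the -0.66 of Helicon 4. The others were LGR4 (0.33), NKD2 (-0.29) and APCDD1 (-0.12), all at 48 h. In the remaining 13 cases the values ran from -0.21 to 0.19.

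**Figure D5:**
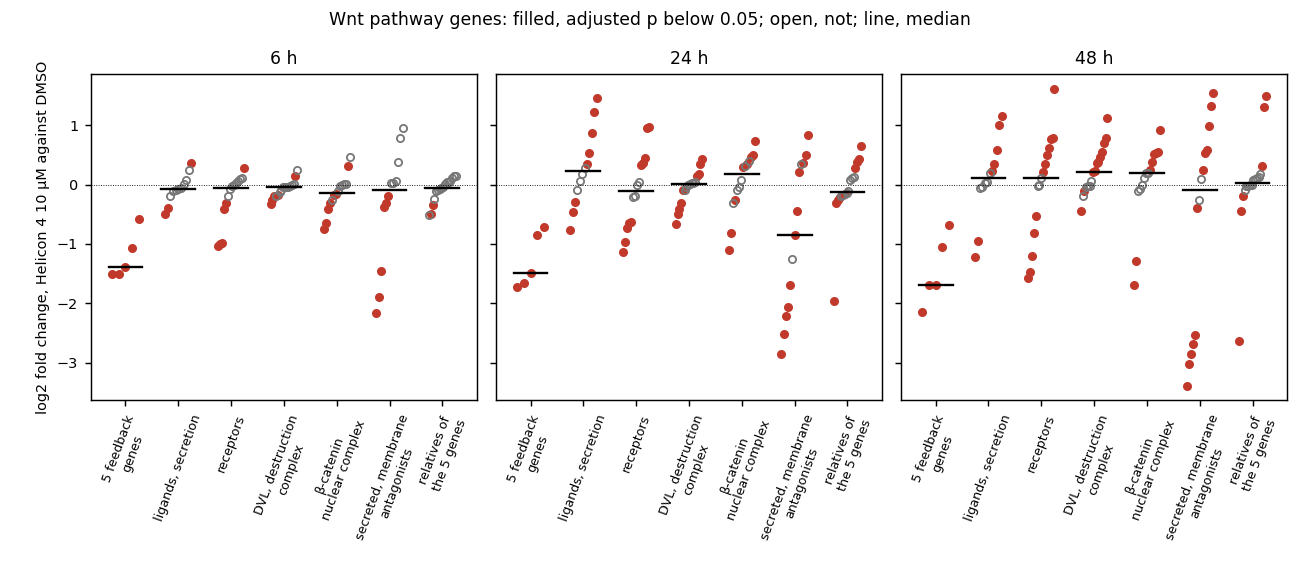
Log2 fold change of Helicon 4 10 µM against DMSO for the 5 feedback genes and the genes of 6 other Wnt pathway lists, at 6, 24 and 48 h. Filled points passed an adjusted p of 0.05, open points did not, and lines are medians. The 5 genes are all below 0, with medians of -1.39 to -1.69, while the other lists spread to both sides.

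Across the 21 group means, the members' profiles of log2(value + 1) correlated with Pearson's r between 0.71 (NKD1 and RNF43) and 0.95 (NKD1 and SP5). This is a description, since the genes were measured in the same libraries with the same scaling. RNF43 was the least alike to the others, at 0.71 to 0.89. Among 9154 other genes whose log2(value + 1) averaged 3 or more, the profiles closest to AXIN2 were those of OXR1 (0.985), TNFRSF19 (0.975) and MTF2 (0.972). To NKD1 they were TBC1D4 and TRAK2 (0.967 each) and MTF2 (0.958). To RNF43 they were FAM84A (0.947), TGFB2 (0.934) and ERG (0.923), to ZNRF3 MYCN (0.953), TBC1D4 (0.938) and LINC01451 (0.935), and to SP5 LINC01451 (0.977), DLX1 (0.971) and MYCN (0.965). Closest to the mean profile of all 5 were OXR1, LINC01451, MBIP, MTF2, TBC1D4, CXADR, TNFRSF19 and MYCN, with r of 0.956 to 0.976. OXR1 averaged 44.7 with Helicon 4 10 µM and 150 with DMSO at 48 h, and LINC01451 1.80 and 18.2.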

How the data were processed

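COLO320DM RNA was sequenced by the submitters in 63 libraries of 21 groups. Per the submitters' processing notes the tools were Trimmomatic 0.39, STAR 2.7.7a, featureCounts, Subread 2.4.2 and edgeR 4.0.2 with the build GRCh38; the annotation, strand setting and gene filter are not given in the sources used here. The deposited signal values behave as CPM divided by a library scaling factor: column sums ran from 929785 to 1.05974e+06, and 100% of values were whole multiples of 1 read within 0.01 read. The reads so recovered gave the depth, and on them edgeR called 1831, 6937 and 8059 genes for Helicon 4 10 µM against DMSO at 6, 24 and 48 h, against 1791, 6968 and 8061 by limma. Without a stated strand setting, reads of overlapping antisense genes cannot be told apart.

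The main test was limma 3.58.1 (trend, not robust; R 4.3.3) on log2(value + 1), 1 fit of 21 libraries per time and 1 fit of 63 for contrasts between times. A gene was tested where 3 or more libraries of the fit had a value of 0.5 or more (13057, 13213 and 13478 genes at 6, 24 and 48 h). Tests were two-sided, with Benjamini-Hochberg adjustment over all genes tested. Alternatives were robust empirical Bayes, median centring, no filter, a pseudocount of 0.1, 1 fit of all libraries, a replicate block, edgeR 4.0.16 on the recovered reads, and leaving out each library. The others, on library sets (told apart at a level of 10) and the 2 lowest mitochondrial sums, were chosen after seeing the data. The members, lists and tests were chosen with earlier results of these data known. Named pathway genes are, per list and time, the called gene with the smallest p at 10 µM. Python 3.11.15 and scipy 1.17.1 were used, and scripts were tested on simulated data. The 63 replicate pairs held 0 identical columns. Intervals on counts cover counting error only.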

Additional observations from a re-analysis of the deposited data

Results flagged for a closer look

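The Helicon 4 effect (Helicon 4 minus DMSO, log2) differed between times by the test of the difference itself in 15 of 30 tests. The test was limma's fit of all 63 libraries at an adjusted p below 0.05. Of all genes, 9.1%, 32.8% and 38.6% were called at 1, 3 and 10 µM for 24 minus 6 h. For 48 minus 24 h the shares were 16.7%, 30.8% and 34.2%. The calls at 10 µM (1 and 2 of 5 members) and at 3 µM for 48 minus 24 h (2 of 5) were below or near these shares. Negative differences mean a larger fall at the later time. At 1 µM, 24 minus 6 h, the differences were -0.858 for AXIN2, -1.413 for NKD1 and -1.033 for SP5, and at 48 minus 24 h they were -0.304 for NKD1 and -0.572 for SP5. That NKD1 call ended in 10 of 12 fits that left out a library, and both calls ended in the GFAP set alone (adjusted p = 0.083 for NKD1 and 0.13 for SP5). At 3 µM, 24 minus 6 h, they were -0.995 for AXIN2, -1.185 for NKD1, -0.327 for RNF43, -0.407 for ZNRF3 and -0.432 for SP5, and at 48 minus 24 h -0.277 for RNF43 and -0.671 for SP5. At 10 µM, RNF43 had 0.218 at 24 minus 6 h, and at 48 minus 24 h AXIN2 had -0.213 and SP5 -0.488. In the GFAP set alone the calls of SP5 at 1 and 3 µM (24 minus 6 h) and at 10 µM and of RNF43 at 10 µM ended too. All comparisons of 1 time share its DMSO libraries.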

How the results depend on the processing

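No call of the 10 µM falls against DMSO or Helicon 4-neg was lost in any alternative run, and no called value changed sign. Signs that changed belonged to values called in neither fit. The number of members called for Helicon 4 1 µM against DMSO at 6 h (1) was 0 with 1 fit of all libraries, with the library set as a term and in the GFAP set alone, and 0 to 2 when libraries were left out in turn (2 without Helicon 4 replicate 3 or DMSO replicate 1, with ZNRF3 at -0.30). For 10 against 3 µM at 24 h (2) it was 1 with edgeR, with the set term and in the GFAP set, and 1 to 2 with libraries left out (1 without Helicon 4 10 µM replicate 2 or 3 µM replicate 3). For 10 against 3 µM at 48 h (2) it was 1 in the GFAP set. For Helicon 4-neg against DMSO, 10 µM at 24 h (1) gave 0 in the GFAP set and 0 to 1 with libraries left out. For 1 µM at 48 h (0) it was 1 with 1 fit of all libraries and in the GFAP set, and 0 to 1 with libraries left out. For 10 µM at 48 h (0) it was 1 with 1 fit of all libraries and without the low-mitochondrial libraries, and 0 to 1 with libraries left out, and 3 µM at 48 h (1) gave 2 with the set term. Both of these 0 to 1 ranges reach 1 without DMSO replicate 1.

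Among differences between times, the GFAP set alone gave 0 for 1 µM at 48 minus 24 h (2), 0 for 10 µM at 24 minus 6 h (1) and 1 for 10 µM at 48 minus 24 h (2). Leaving out libraries gave 1 to 2 for 1 µM and 1 to 2 for 3 µM at 48 minus 24 h (1 without Helicon 4 3 µM 48 h replicate 2), 3 to 5 for 3 µM at 24 minus 6 h (3 without DMSO 6 h replicate 1), and 0 to 1 and 1 to 3 for 10 µM at 24 minus 6 h and 48 minus 24 h (1 without Helicon 4 24 h replicate 1 or DMSO 48 h replicate 1). For DMSO at 24 against 6 h they gave 0 to 1 (1 without 6 h replicate 2, with ZNRF3 at 0.27). The cause of these changes was not tested; the GFAP set has 1 or 2 libraries a group. With the replicate block, which changed 1 call, SP5 in DMSO at 48 against 24 h had 0.257 (adjusted p = 0.089). The mean correlation of same-numbered libraries was -0.0275, 0.0337 and -0.0385 at 6, 24 and 48 h. Single pairs ran from -0.651 to 0.762 at 24 h, so these means do not settle whether numbers pair libraries. The RNF43 to ZNRF3 difference was -0.30 to -0.37 with libraries left out. It was -0.346 in the GFAP set, where groups of 1 or 2 libraries are too small for a useful permutation p. SP5 rests on the fewest reads.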
